A study of Homo sapiens with 3 samples.

Results

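This account compares the endocrine cells of the PAX6 homozygous (KO, PAX6-/-) and heterozygous (HET, PAX6+/-) libraries of a stem cell differentiation, that is, loss of both PAX6 copies against loss of one. A cell was counted as endocrine when chromogranin A (CHGA), a protein packed into the secretory granules of nearly all endocrine cells, made up at least 10 of every 10000 of its UMIs (unique molecular identifiers, each standing for 1 captured RNA molecule). The cell also needed between 1000 and 40000 UMIs, 500 genes or more, and a mitochondrial share of UMIs no higher than 20%. This gave 1101 KO cells and 618 HET cells, together 1719 of the 29021 barcodes of the series. The unedited library (WT) gave 1601 such cells and is used beside them as a reference. CHGA itself chose the cells, so its level is no result. Just inside the limit, at 10 to 12 per 10000, lay 29 KO and 22 HET cells, and just outside it, at 8 to 10 per 10000, lay 51 and 46.

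All 3 libraries were droplet single-cell RNA profiles of H1 cells, an embryonic stem cell line of human origin in wide use, taken after differentiation to cells that the labels call beta cells. They differ by PAX6 genotype, WT, HET or KO, with 1 library each and no other treatment named. The position of the PAX6 lesion and the number of clones behind each genotype are not named in the labels. With 1 library a side, genotype and library cannot be told apart and no difference has a test, so "higher" and "lower" below describe these libraries, and all intervals cover counting error only.

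PAX6 is a transcription factor with a paired domain and a homeodomain that is switched on in endocrine precursors and stays on in the hormone cells of the islet. It is known to bind and activate hormone genes, among them those of glucagon, insulin and somatostatin. In mice without it, the pancreas is known to hold few alpha cells, fewer beta cells and more cells that make ghrelin.

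Over the endocrine cells, the KO library held 14921794 UMIs and the HET library 9380367. The median cell had 12623 UMIs in KO and 13154.5 in HET, with 9.01% and 8.44% mitochondrial UMIs (6.44% in WT). All 20 endocrine marker genes reached 5 CPM in each library (CPM scales the counts to a common library total). Their summed level was 8203 CPM in KO, 7994 in HET and 10189 in WT, against 345, 318 and 404 CPM in cells with CHGA under 2 per 10000, called CHGA-low cells below. No barcode was shared between KO and HET among the endocrine cells. Endocrine cells were 12.7% of the filtered KO cells (95% exact binomial interval 12.0 to 13.4) and 7.45% of the filtered HET cells (6.90 to 8.04), against 18.9% in WT. Genes on the marker lists of other cell types were also detected, which alone does not show that such cells were present. Summed markers of liver stood at 7096 CPM in KO and 9663 in HET, all 6 of them detected. In CHGA-low cells their sum was 7422 CPM in KO and 5930 in HET. With the ranges of cells described further on weighted equally, TTR of the liver list alone was at 7366 CPM in KO and 7671 in HET. On this weighting, which differs from that of the sums above, the next highest of the list, FGB, was at 595 and 894 CPM. TTR thus made up most of the list's level. Mesenchyme markers summed to 18.0 and 39.4 CPM, with 1 of 7 at 0 in KO. Duct or progenitor markers summed to 1341 and 1938 CPM. The 5 markers of stretched epithelium summed to 142 and 250 CPM, none at 0, all 5 lower in KO and 2 of them, ANKRD1 and CYR61, by at least 2-fold. Their part in the differences below was not tested.

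PAX6 RNA (chromosome 11, 31784779 to 31818062, minus strand, GRCh38) was present in all 3 libraries. Its level stood at 324 (WT), 241 (HET) and 286 CPM (KO), so it was 1.19-fold higher in KO than in HET (1.13 to 1.25). Since an edited allele can still be transcribed and the lesion's place is not known, this level does not check the genotype labels. After each cell was thinned to 3000 UMIs, 41.5% of KO cells and 41.1% of HET cells had a PAX6 UMI (54.9% and 61.8% unthinned), against 0.780% and 0.589% of CHGA-low cells (median depth 15968 and 14233 UMIs).

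Of 3543 genes at 50 CPM or more in KO or HET, 37 (1.04%) were at least 2-fold lower in KO and 11 (0.31%) were at least 2-fold higher. The other 3495 lay within 2-fold, and the median log2 ratio over all 3543 was 0.01. The genes furthest below included hormones and granule genes of islet cells, and those furthest above included a serotonin enzyme, an opioid precursor and a pair of interferon-induced genes.

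**Figure D1:**
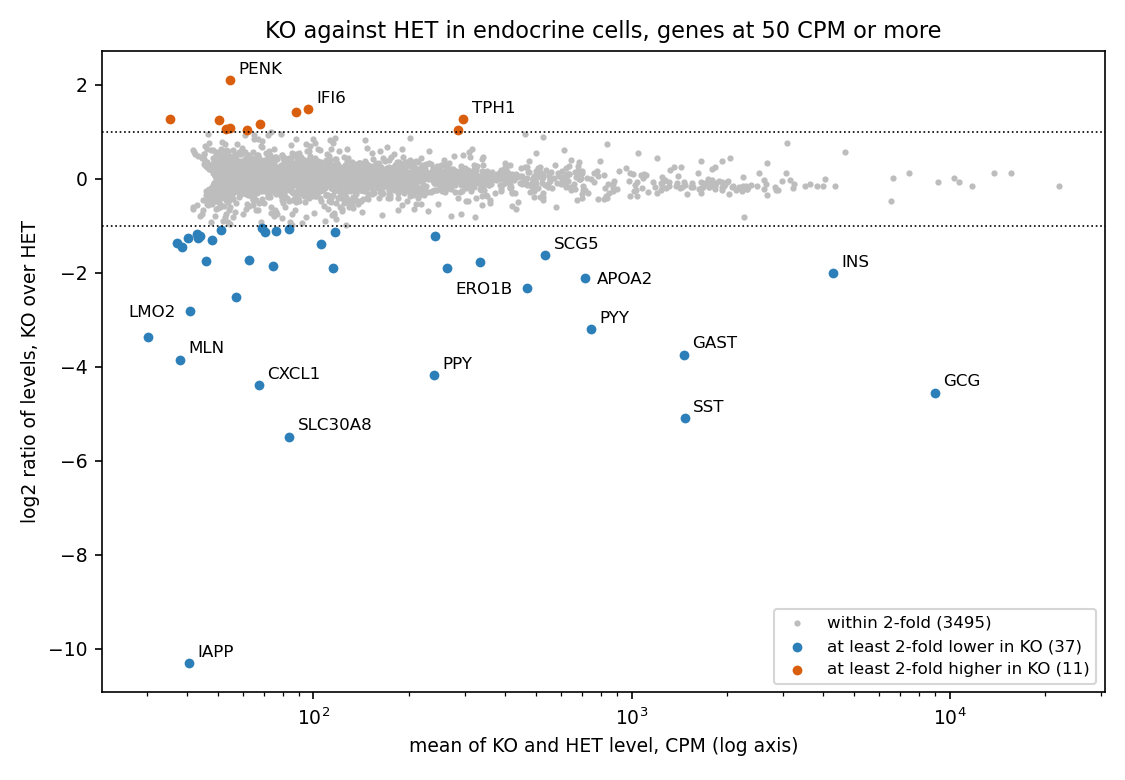
Each point is 1 of 3543 genes, with the mean of its KO and HET levels in CPM (log axis) against the log2 ratio of KO over HET, and dotted lines at 2-fold. The 37 genes below the lower line reach a log2 ratio of -10.31 for IAPP, while the 11 above the upper line end at 2.10 for PENK.

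The sequences upstream of the hormone genes and of the serotonin enzyme are shown because these genes mark the ends of the comparison and the first of them are known PAX6 targets. They are the 250 bases before the annotated start (RefSeq, GRCh38.p14), 5′ to 3′ on the gene's strand. Capitals mark the homeodomain core TAAT, or ATTA where it lies on the other strand. The windows are chr2:162152248-162152497 minus for GCG, chr3:187670395-187670644 minus for SST, chr12:21372652-21372901 plus for IAPP (the second of the starts listed for it) and chr11:18046270-18046519 minus for TPH1.
GCG: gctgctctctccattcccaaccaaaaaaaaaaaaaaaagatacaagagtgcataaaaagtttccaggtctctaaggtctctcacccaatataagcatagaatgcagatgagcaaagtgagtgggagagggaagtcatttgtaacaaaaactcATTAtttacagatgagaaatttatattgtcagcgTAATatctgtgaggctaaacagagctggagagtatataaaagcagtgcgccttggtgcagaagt
SST: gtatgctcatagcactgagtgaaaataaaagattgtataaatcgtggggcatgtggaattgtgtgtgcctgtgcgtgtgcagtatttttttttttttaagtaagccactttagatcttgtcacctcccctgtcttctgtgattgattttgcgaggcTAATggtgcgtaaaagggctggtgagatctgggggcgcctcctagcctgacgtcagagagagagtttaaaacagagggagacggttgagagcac
IAPP: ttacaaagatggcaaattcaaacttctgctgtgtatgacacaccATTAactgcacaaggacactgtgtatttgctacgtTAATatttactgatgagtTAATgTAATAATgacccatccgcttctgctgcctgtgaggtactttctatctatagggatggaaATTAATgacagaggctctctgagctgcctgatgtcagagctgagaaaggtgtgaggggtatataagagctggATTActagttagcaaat
TPH1: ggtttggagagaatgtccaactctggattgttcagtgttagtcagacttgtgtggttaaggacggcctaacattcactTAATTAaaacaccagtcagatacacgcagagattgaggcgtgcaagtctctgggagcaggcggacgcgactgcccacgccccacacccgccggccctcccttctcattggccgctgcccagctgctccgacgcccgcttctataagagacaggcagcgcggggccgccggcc

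The IAPP window shown held 8 such cores, counting overlaps and both strands, and the window of its other start held 2. Of all 35116 windows in the RefSeq table, 47.4% held at least 1 core and 1.12% held at least 8. Windows were found for 30 of the 37 lower genes and 7 of the 11 higher genes. The core was in a window of 19 of the 30 and of 5 of the 7, or 63.3% and 71.4%, against 52.7% of all 27305 genes in the table. The palindromic dimer sites of homeodomains, TAAT and ATTA parted by 2 or by 3 bases, were in none of these genes' windows, and they occurred in 0.399% and 0.330% of all windows (0.491% and 0.410% of all genes). TAATTA, which overlaps the core on both strands, was in none of the 30 and in 2 of the 7, TPH1 (172 bases before the start) and MGAT4C, against 5.37% of all genes and 4.35% of all windows. A match in so short a stretch is a description of the letters and no evidence of binding.

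Hormone genes had the median furthest from 0 among the 24 gene lists. Of 16 hormone genes, 15 reached 5 CPM. Among these, 10 were at least 2-fold lower in KO and 2 at least 2-fold higher, where 1.96% and 0.998% of all 11818 genes at 5 CPM passed the same folds. The median log2 ratio of the 15 was -2.02, beside 0.01 for all genes at 5 CPM. In bulk sums such as these, fewer cells of a type and less RNA per cell cannot be told apart, and the ranges of cells described further on bear on that.

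GCG, the precursor of glucagon and of GLP-1, reached 31785 CPM in WT, 17228 in HET and 734 in KO. The KO level was 23.5-fold below that of HET (23.0 to 23.9). SST, the precursor of somatostatin, was at 4417 CPM in WT, 2856 in HET and 83.8 in KO, a 34.1-fold lower level in KO than in HET. Thus the libraries stood in the order WT, HET, KO for both genes. Weighting the ranges of cells described further on equally gave log2 ratios of -1.92 for GCG and -2.13 for SST, not -4.55 and -5.09. Both genes themselves cut these ranges, so the smaller differences are no separate result.

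INS, the insulin gene, was at 8014 CPM in WT, 6901 in HET and 1704 in KO, which was 4.05-fold lower in KO than in HET (3.99 to 4.11). Its reads can be shared with the overlapping INS-IGF2 readthrough gene. IAPP, the amylin gene, whose peptide is secreted together with insulin, had 5918 counts (266 CPM) in WT, 759 (81.3 CPM) in HET and a single count in KO, a ratio of 1267 between HET and KO with a counting interval of 227 to 50109. IAPP was thus close to undetected in the KO endocrine cells, while INS remained among the more abundant genes.

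After thinning to 3000 UMIs, 42.0% of KO and 63.5% of HET endocrine cells had an INS UMI (58.4% and 79.9% unthinned). In CHGA-low cells, which should lack insulin, the shares were 4.24% and 12.2%. A GCG UMI was found in 9.23% of KO and 44.5% of HET cells, against 1.39% and 18.7% of CHGA-low cells. The share in these background cells was thus higher in HET than in KO for both hormones. For IAPP, 0 of 1008 thinned KO cells had a UMI, which allows a share of cells with a UMI of up to 0.298% (3 counts; the exact interval ends at 0.365%), against 25 of 598 HET cells, or 4.18% (2.72 to 6.11).

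PPY, the pancreatic polypeptide gene, was at 790 CPM in WT, 452 in HET and 24.95 in KO. PYY, which encodes peptide YY, was at 2932, 1350 and 146 CPM. Both stood in the order WT, HET, KO. GAST, the gastrin gene, and MLN, the motilin gene, did not, since HET was above WT for both. GAST was at 1530 CPM in WT, 2716 in HET and 202 in KO. MLN was at 12.5, 71.2 and 4.94 CPM. CCK (cholecystokinin) and NTS (neurotensin), which are mostly made by gut endocrine cells and neurons, were 3.37-fold and 3.75-fold lower in KO than in HET. The HET endocrine cells expressed NTS below the 750 CPM of the HET CHGA-low cells, at 414 CPM.

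A few HET cells carried much of some of these genes. The 5 cells with the most counts held 88.4% of the MLN counts, 69.2% of SST, 65.3% of IAPP, 63.6% of PPY and 54.4% of GAST in HET, but 12.2% of GCG and 6.28% of INS. In KO the 5 top cells held 77.1% of the PPY counts and 73.7% of those of SLC30A8, the zinc transporter gene described next. Without the 5 top cells of each library, MLN was 2.23-fold lower in KO than in HET, SST 18.5-fold, PPY 28.9-fold, GAST 10.3-fold and SLC30A8 153-fold. IAPP then had 263 counts in HET and 0 in KO, so it was at least 147-fold lower against a floor of 3 counts in the KO library. All 26 of the genes named as the largest differences at 50 CPM stayed at least 2-fold apart in the same direction without these cells.

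Other peptide genes were higher in KO. PENK, the precursor of the enkephalin opioid peptides, was at 50.4 CPM in WT, 20.8 in HET and 88.9 in KO, 4.28-fold higher than in HET (3.68 to 5.00). TAC1, the precursor of substance P, had 5 counts (0.535 CPM) in HET and 116 (7.44 CPM) in KO, a 13.9-fold difference (5.79 to 43.6), and stood at 6.65 CPM in WT. Both were therefore lowest in HET. GHRL, the ghrelin gene, was at 679 CPM in WT, 2300 in HET and 3863 in KO. It was 1.68-fold higher in KO than in HET (1.65 to 1.71), under 2-fold. Without the 5 top cells of each library it was 2.07-fold higher, so this call depends on the setting. With the ranges weighted equally its log2 ratio was 0.11 in place of 0.75. GHRL itself cuts a range, so that value is no separate result. CRH, the corticotropin-releasing hormone gene, was at 55.9, 371 and 680 CPM.

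**Figure D2:**
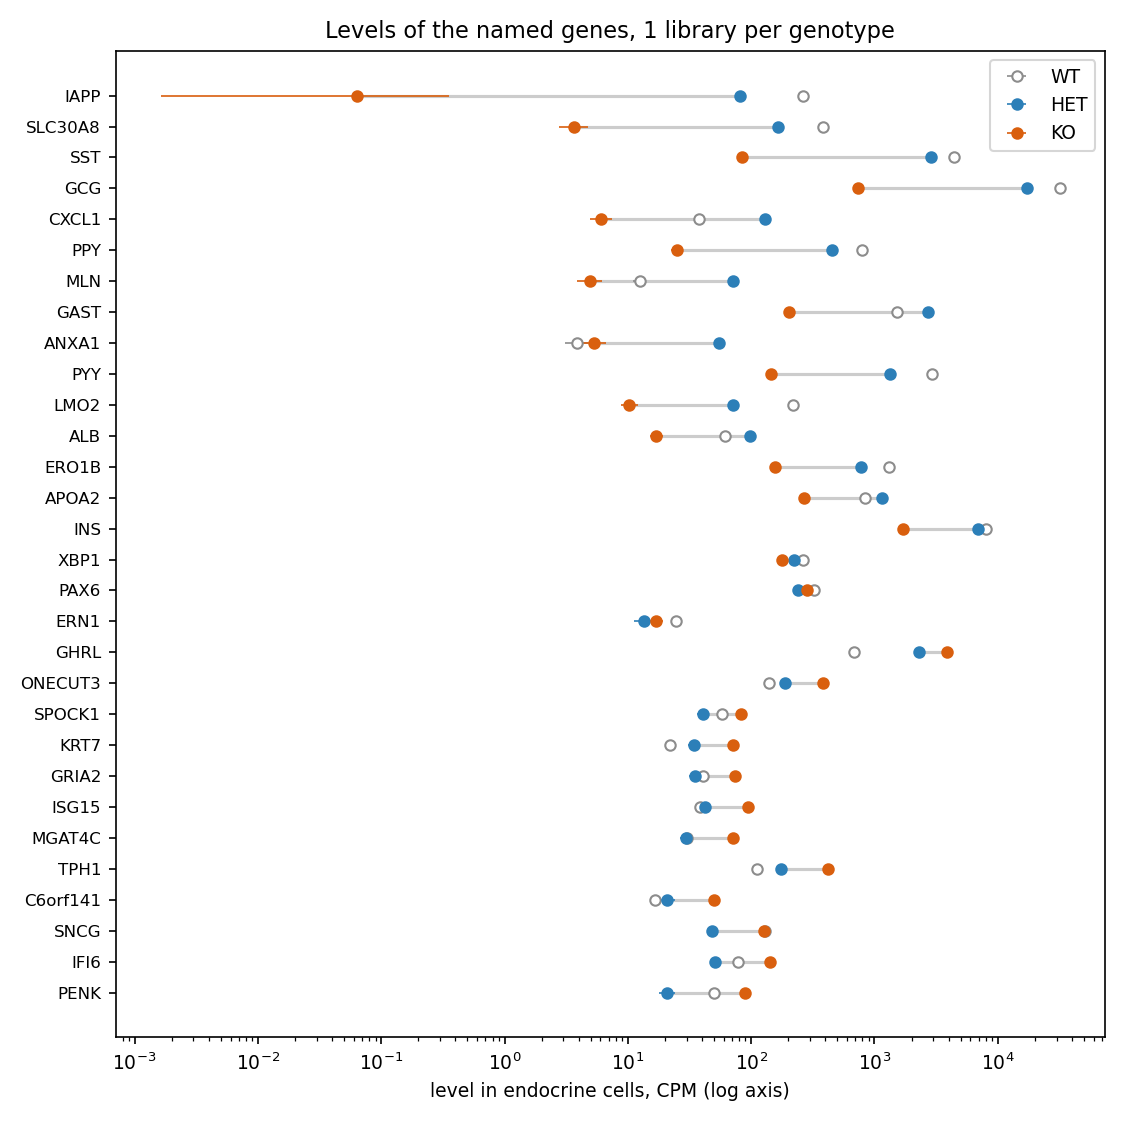
Levels in CPM (log axis) of the 26 genes with the largest KO to HET differences at 50 CPM and of PAX6, GHRL, ERN1 and XBP1, as the sum over endocrine cells of the WT, HET and KO libraries, with exact Poisson 95% intervals and a grey line from HET to KO. IAPP spans from 81.3 CPM in HET to 0.0641 CPM in KO, while PAX6 lies between 241 and 324 CPM in all 3 libraries.

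Most genes of the secretory granule lay within 2-fold, with a few exceptions. Of 17 granin and granule membrane genes, 2 were at least 2-fold lower in KO, 1 was higher and 14 lay within 2-fold, with a median log2 ratio of -0.07. SLC30A8, the zinc transporter that loads the insulin granule, was at 381 CPM in WT, 164 in HET and 3.66 in KO, 45.0-fold lower in KO than in HET (34.5 to 59.6) and 153-fold lower without the 5 top cells of each library. After thinning, an SLC30A8 UMI was found in 21.1% of HET and 0.694% of KO endocrine cells (30.1% and 1.54% unthinned), with 0.345% and 0.0900% of CHGA-low cells as background.

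ERO1B, an endoplasmic reticulum oxidase that supports disulphide bond formation in proinsulin, was at 1316 CPM in WT, 780 in HET and 155 in KO. The KO level was 5.04-fold below that of HET (4.81 to 5.27), whereas its paralog ERO1A was 1.07-fold lower (0.94 to 1.21). ERO1B thus stood apart from the other folding genes described below. SLC18A1, a vesicular monoamine transporter, was at 7.92 CPM in HET and 23.5 in KO, 2.97-fold higher.

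The common granule proteins were near equal. CHGB, another granin, stood at 191 (HET) and 182 CPM (KO). SCG2 was 1.36-fold higher in KO and SCG3 1.31-fold lower, both far inside the 2-fold limit.

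Of 8 prohormone processing genes at 5 CPM, 1 was lower by at least 2-fold and none higher, with a median of 0.00. This was SCG5, which encodes 7B2, the chaperone of the convertase PC2, at 1196 CPM in WT, 808 in HET and 262 in KO (3.08-fold lower, 2.97 to 3.21). The convertases themselves pointed the other way. PCSK2 and PCSK1, which cut prohormones, had log2 ratios of 0.58 and 0.59. CPE, which trims the cut peptides, differed by 1.01-fold.

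Among 17 exocytosis genes the median log2 ratio was 0.35, with 14 above 0. Of all 11818 genes at 5 CPM, 6191 were above 0 and 5627 below. SYT1, a calcium sensor of vesicle release, was 2.16-fold higher in KO, with 151 counts in HET and 544 in KO. SYT11, a synaptotagmin that does not bind calcium, was 2.84-fold lower (2.42 to 3.33). The remaining 15 lay within 2-fold.

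Glucose and nutrient sensing genes held 4 members at least 2-fold lower and 1 higher out of 16 at 5 CPM, against 1.96% and 0.998% of all genes, with a median of -0.30. FFAR1, the long-chain fatty acid receptor of beta cells, had 266 counts in HET and 3 in KO, a ratio of 148 (50.1 to 722). G6PC2, the islet form of glucose-6-phosphatase, had 121 counts in HET and 0 in KO, at least 67.3-fold lower against the floor of 3 counts, with an exact interval that starts at 53.9. The G6PC2 level was 10.1 CPM in WT and 13.0 in HET, and that of FFAR1 was 64.8 and 28.5.

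CASR, the calcium-sensing receptor, was 12.2-fold lower in KO (8.07 to 19.2), and TRPM5, a cation channel gated by calcium, 4.39-fold lower (3.15 to 6.18). FFAR4, another fatty acid receptor, was 2.27-fold higher. The KATP channel subunits ABCC8 and KCNJ11 lay closer to 1, at 1.41-fold and 1.30-fold lower, the last with an interval that includes 1 (0.98 to 1.71). None of 14 other ion channel genes reached 2-fold in either direction, and their median was 0.11.

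Transcription factors on the beta cell list differed little. Of 16 beta cell factors at 5 CPM none reached 2-fold, and the median log2 ratio was 0.10. PDX1, which maintains beta cell identity, was at 90.3 CPM in HET and 77.1 in KO. NKX6-1, needed for beta cells, was at 61.0 and 78.0 CPM. Both lay within 1.28-fold between the libraries. PAX4, a paired box relative of PAX6 in endocrine precursors, was 1.55-fold higher in KO (1.43 to 1.69). MAFA was under 5 CPM in both libraries, with 28 counts in HET and 32 in KO.

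Of the 11 factors known from other islet cells, 2 reached 2-fold, both lower in KO. HHEX, a factor of delta cells, was at 30.7 CPM in HET and 9.75 in KO (3.15-fold lower, 2.58 to 3.86). IRX1, found in alpha cells, was at 19.3 and 8.85 CPM (2.18-fold lower). None of 14 pan-endocrine factors reached 2-fold, with a median of 0.22. Of the 14, 11 had ratios above 0, against 6191 of all 11818 genes at 5 CPM. INSM1 and NEUROD1 were 1.38-fold and 1.21-fold higher in KO.

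Several serotonin and enterochromaffin genes were higher in KO. Of 12 at 5 CPM, 4 were at least 2-fold higher and 1 lower, against 0.998% and 1.96% of all genes at 5 CPM, with a median log2 ratio of 0.67. TPH1, which carries out the rate-limiting step of serotonin synthesis outside the brain, was at 112 CPM in WT, 175 in HET and 418 in KO (2.39-fold higher than in HET, 2.27 to 2.53). A TPH1 UMI was found in 25.2% of KO and 10.7% of HET cells after thinning (36.8% and 14.9% unthinned), against 1.86% and 0.646% of CHGA-low cells. Besides TPH1 and SLC18A1, MME (neprilysin, a peptidase) was 3.05-fold higher and TRPA1 (an irritant-sensing channel) 2.51-fold higher. The member that was lower was SLC6A4, the serotonin reuptake transporter, with 72 counts in HET and 18 in KO (6.68-fold). DDC, which completes serotonin synthesis, was 1.83-fold higher in KO, and FEV, a factor of serotonin cells, 1.55-fold higher. With the ranges of cells described further on weighted equally, DDC was at 272 CPM in KO and 227 in HET, and FEV at 419 and 342. On this weighting SLC18A1 (30.6 and 18.5 CPM), MME (43.3 and 22.3) and TRPA1 (10.6 and 5.83) were higher in KO by under 2-fold. SLC6A4 stayed lower in KO (1.88 and 5.80 CPM).

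Of 14 autonomic and neuronal genes at 5 CPM none reached 2-fold (median 0.43). Of the 14, 12 had ratios above 0, against 6191 of all 11818 genes at 5 CPM. PHOX2A, a factor of autonomic neurons, was 1.58-fold higher in KO, and CHRNA3, a nicotinic receptor subunit of ganglia, 1.79-fold higher. With the ranges of cells described further on weighted equally, PHOX2A was at 159 CPM in KO and 193 in HET, and CHRNA3 at 98.2 and 85.9. Both genes help to cut these ranges, so the weighted values are no separate result. Outside this list, GRIA2, an AMPA receptor subunit, was at 40.5 CPM in WT, 35.1 in HET and 74.0 in KO (2.11-fold higher than in HET). SNCG, gamma-synuclein, was at 130 CPM in WT, 48.1 in HET and 128 in KO. Its KO level was therefore close to WT and its HET level was the one that stood apart.

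Other genes at least 2-fold higher were IFI6 and ISG15, both induced by interferon. IFI6 was at 78.4 CPM in WT, 51.1 in HET and 142 in KO, and ISG15 at 38.8, 42.2 and 94.0. IFIT1, likewise induced by interferon, had 13 counts in HET and 95 in KO (4.38-fold). The list as a whole did not follow, since 12 of 15 members at 5 CPM lay within 2-fold and the median was -0.01. The remaining higher genes were ONECUT3, a cut-homeobox factor (188 CPM in HET and 383 in KO), KRT7, a duct keratin (34.6 and 71.9), SPOCK1, a matrix proteoglycan (40.6 and 83.1), MGAT4C, a gene of the N-glycan branching family (29.9 and 71.0), and C6orf141 (20.9 and 50.1).

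The unfolded protein response was examined because the series' title names the IRE1α pathway. ERN1, which encodes IRE1α, was at 24.7 CPM in WT, 13.5 in HET and 17.0 in KO, 1.26-fold higher in KO than in HET (1.02 to 1.57). XBP1, whose RNA IRE1α splices, was at 262 CPM in WT, 222 in HET and 180 in KO, 1.23-fold lower in KO (1.17 to 1.31). These counts do not separate spliced from unspliced XBP1. None of the 30 IRE1-XBP1 genes reached 2-fold, and the median was -0.21. Of the 30, 24 had ratios below 0, against 5627 of all 11818 genes at 5 CPM. SPCS3, a signal peptidase subunit, was 1.39-fold lower and DNAJC3, a chaperone of the endoplasmic reticulum, 1.38-fold lower, while SRP19 of the signal recognition particle was 1.28-fold higher.

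Of 18 genes of the ATF6 branch and chaperones, 17 had ratios below 0 (median -0.24), against 5627 of all 11818 genes at 5 CPM. ERO1B alone of the 18 passed 2-fold. HSPA5, the main chaperone BiP, was at 536 CPM in HET and 450 in KO, and PDIA4, a disulphide isomerase, was 1.36-fold lower. The 20 genes of the PERK-ATF4 branch had a median of -0.09, with none past 2-fold. DDIT3, the CHOP gene, was 1.35-fold lower in KO (1.19 to 1.53).

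The energy and cholesterol groups were close to equal. The 25 nuclear-encoded oxidative phosphorylation genes had a median log2 ratio of 0.05, the 13 mitochondrially encoded genes 0.01 and the 16 cholesterol synthesis genes 0.08, with none past 2-fold. Where 5627 of all 11818 genes at 5 CPM had ratios below 0, 13 of 15 cell cycle genes did, with a median of -0.33. At least 2-fold lower in KO were 3 of them (UBE2C 2.13-fold, CENPF 2.06-fold, BIRC5 2.03-fold), against 1.96% of all genes at 5 CPM. The summed proliferation markers were 38.0 CPM in KO and 51.3 in HET, and 104 and 189 CPM in CHGA-low cells. Of 18 glycolysis and hypoxia genes, VEGFA alone passed 2-fold (2.09-fold lower), and of 17 immediate early genes NR4A2 alone (2.31-fold lower). Of 17 apoptosis and p53 genes, GADD45B alone did so (2.05-fold lower), and of 8 genes normally low in mature islets none did. Of 7 metallothioneins, 2 reached 5 CPM, and MT1F was 2.51-fold higher in KO.

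**Figure D3:**
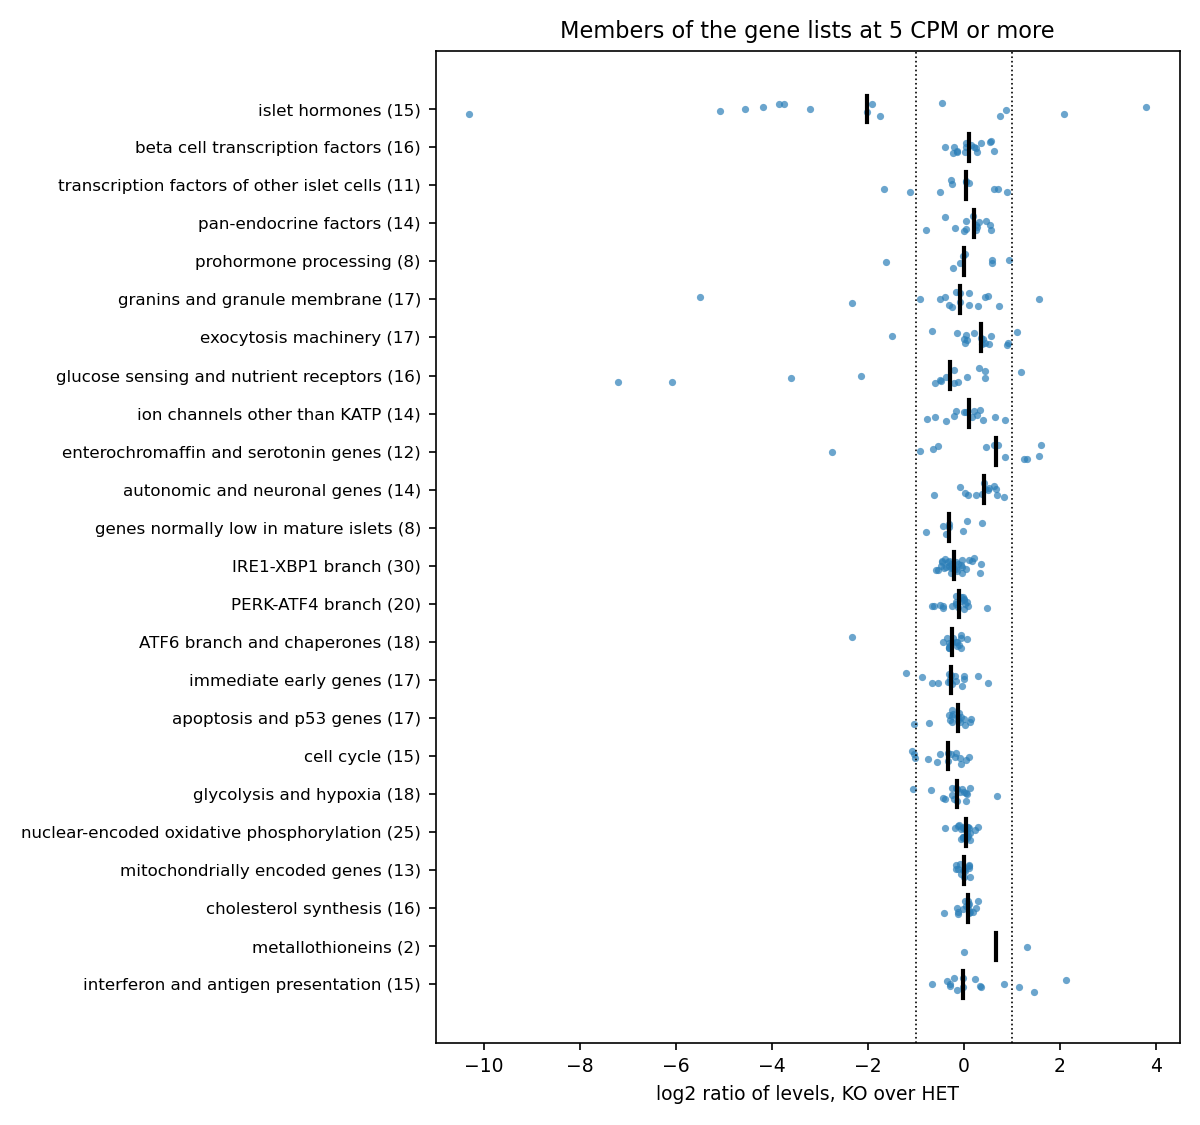
Log2 ratio of KO over HET for each member of 24 gene lists at 5 CPM or more (points, spread vertically for sight), with the list's median as a black bar, the number of members in brackets and dotted lines at 2-fold. Hormones reach from -10.31 to 3.80 with a median of -2.02, whereas the 25 oxidative phosphorylation genes lie between -0.40 and 0.30.

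Not every lower gene is an endocrine gene. Of the 37, 18 were at least 5-fold above the HET CHGA-low cells, and 11 were at or below the level of those cells. The same split over all tested genes is not given here, so this count describes the called genes only. The 11 were ANXA1, NTS, MEIS2, SPP1, IGFBP7, ARHGAP29, WLS, VAMP8, CA2, ANKRD1 and NR2F2. SPP1, the osteopontin gene, was at 517 CPM in HET and 150 in KO endocrine cells, against 1874 and 686 CPM in CHGA-low cells. ANXA1, a membrane-binding annexin, was at 55.0 and 5.32 CPM, against 85.9 and 41.3. In CHGA-low cells as well, 15 of the 37 were at least 2-fold lower in KO, where 0.813% of 3321 genes were. Of these 15, 10 were among the 18 genes at least 5-fold above these cells and 5 among the 11 (ANXA1, NTS, MEIS2, SPP1 and IGFBP7). In the same cells 1 of the 11 higher genes (TPH1) was at least 2-fold higher, where 0.422% were. Of the 11 higher genes, 9 were at least 5-fold above the CHGA-low cells of KO and none was at or below them, again without the split over all genes.

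The remaining lower genes include liver products and signalling genes. ALB (albumin) was at 97.1 CPM in HET and 17.0 in KO, with 66.4% of the HET counts in 5 cells. APOA2, an apolipoprotein, was at 1157 and 267 CPM. CXCL1, a chemokine, was at 37.9 CPM in WT, 129 in HET and 6.09 in KO, with 46.0% of the HET counts in 5 cells. LMO2, a transcriptional cofactor, was at 220 CPM in WT, 71.8 in HET and 10.3 in KO. The levels of ALB, APOA2 and CXCL1 were highest in HET, while LMO2 was highest in WT.

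To see which differences were present among like cells, the endocrine cells were cut into ranges by their leading hormone at 20 per 10000 UMIs or more, and the rest by autonomic genes, by TPH1, or as low-hormone cells. These are ranges of measured values and not cell types, and the genes that cut them are no result inside them. In the KO library 35 cells (3.18%, 2.22 to 4.39) were led by GCG and in HET 127 cells (20.6%, 17.4 to 24.0). The INS range held 164 KO cells (14.9%) and 153 HET cells (24.8%), the SST range 9 (0.817%) and 16 (2.59%), and the PPY range 1 and 4. The GHRL range held 175 KO cells (15.9%, 13.8 to 18.2) and 56 HET cells (9.06%, 6.92 to 11.6). Autonomic genes led in 239 KO cells (21.7%) and 70 HET cells (11.3%), and TPH1 in 111 (10.1%) and 24 (3.88%). The low-hormone range held 367 KO cells (33.3%) and 168 HET cells (27.2%). Those cells were under the limits for the genes that cut the ranges, and other hormones were not checked. KO thus held smaller shares of the GCG and INS ranges and larger shares of the GHRL, autonomic and TPH1 ranges.

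**Figure D4:**
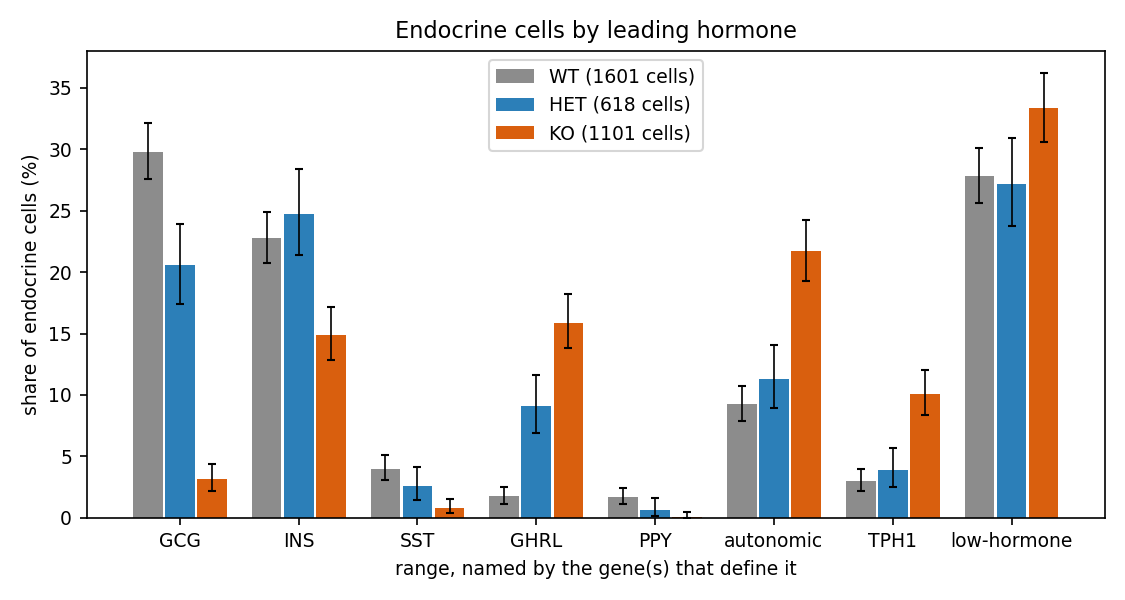
Share of endocrine cells (percent, bars from 0, exact binomial 95% intervals) in each range for WT, HET and KO. The GCG range is 29.8%, 20.6% and 3.18% of the cells in this order, and the GHRL range 1.75%, 9.06% and 15.9%.

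Within the INS range, where cells of both libraries express insulin, SLC30A8, ERO1B and SCG5 were again lower in KO. SLC30A8 was at 274 CPM in HET and 12.4 in KO (22.1-fold lower), ERO1B at 1360 and 283 (4.80-fold lower) and SCG5 at 1138 and 382 (2.98-fold lower). IAPP had 270 counts in HET and 0 in KO, at least 87.0-fold lower, and FFAR1 92 and 2 counts. In this range 49 of 3596 genes (1.36%) were at least 2-fold lower and 16 (0.445%) higher. XBP1 had a log2 ratio of -0.37 and ISL1, a pan-endocrine factor, of -0.35.

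In the GCG range, which rests on 35 KO cells and where 5.33% of 3582 genes were lower and 6.09% higher, SLC30A8 had 851 counts in HET and 0 in KO, at least 63.9-fold lower. IAPP had 482 and 0 counts, at least 36.2-fold lower, and ERO1B was 7.96-fold lower. In the GHRL range ERO1B and SCG5 had log2 ratios of -0.58 and -0.19, in the autonomic range of 0.32 and 0.24, and in the TPH1 range of -0.32 and 0.44. Of all genes at 50 CPM in these ranges, 1.87% were lower and 0.461% higher by 2-fold or more in the GHRL range, 0.531% and 0.584% in the autonomic range, 2.93% and 1% in the TPH1 range and 1.01% and 0.383% in the low-hormone range. ERO1B and SCG5 were therefore at least 2-fold lower in the GCG and INS ranges, and within 2-fold in the GHRL, autonomic and TPH1 ranges. Whether the ranges themselves differ could not be tested with 1 library a side.

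PAX6 was higher in KO than in HET in all 6 ranges with at least 20 cells in both libraries, with log2 ratios from 0.39 in the INS range to 2.26 in the autonomic range. The last rests on 10 HET counts and 164 KO counts. With the ranges weighted equally, the log2 ratio of PAX6 was 0.90, against 0.25 over all endocrine cells. Of the 37 lower genes, 28 were at least 2-fold apart, in either direction, in both the GCG and the INS range. In all 6 ranges 13 were lower, hormones that cut the ranges included. The 37 were chosen over these same cells, so these counts are no separate support. The same counts over all genes are not given here. Among the 13 were SPP1, IGFBP7, PLK2 and VEGFA.

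Of the 11 higher genes, 5 were higher in all 6 ranges (IFI6, C6orf141, MGAT4C, ISG15 and GRIA2). The 11 were likewise chosen over these same cells, so this count is no separate support. With the ranges weighted equally, 3 genes were at least 2-fold higher in place of 11, and 1 of these was shared. IFI6 and MGAT4C then had log2 ratios of 0.98 and 0.99, TPH1 0.29, SNCG 0.69 and ONECUT3 0.42. TPH1 itself helps to cut the ranges, so its value is no separate result. The same weighting left 35 genes at least 2-fold lower, 30 of them shared with the 37. Of the hormones that cut the ranges, 4 then had log2 ratios closer to 0, -1.92 for GCG (-4.55 over all endocrine cells), -2.13 for SST (-5.09), -0.81 for INS (-2.02) and 0.11 for GHRL (0.75). For PPY it was -4.90 (-4.18). The weighting acts on the levels of the genes that cut the ranges, so these hormone values are no separate result. LMO2 was at -1.86 (-2.81).

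**Figure D5:**
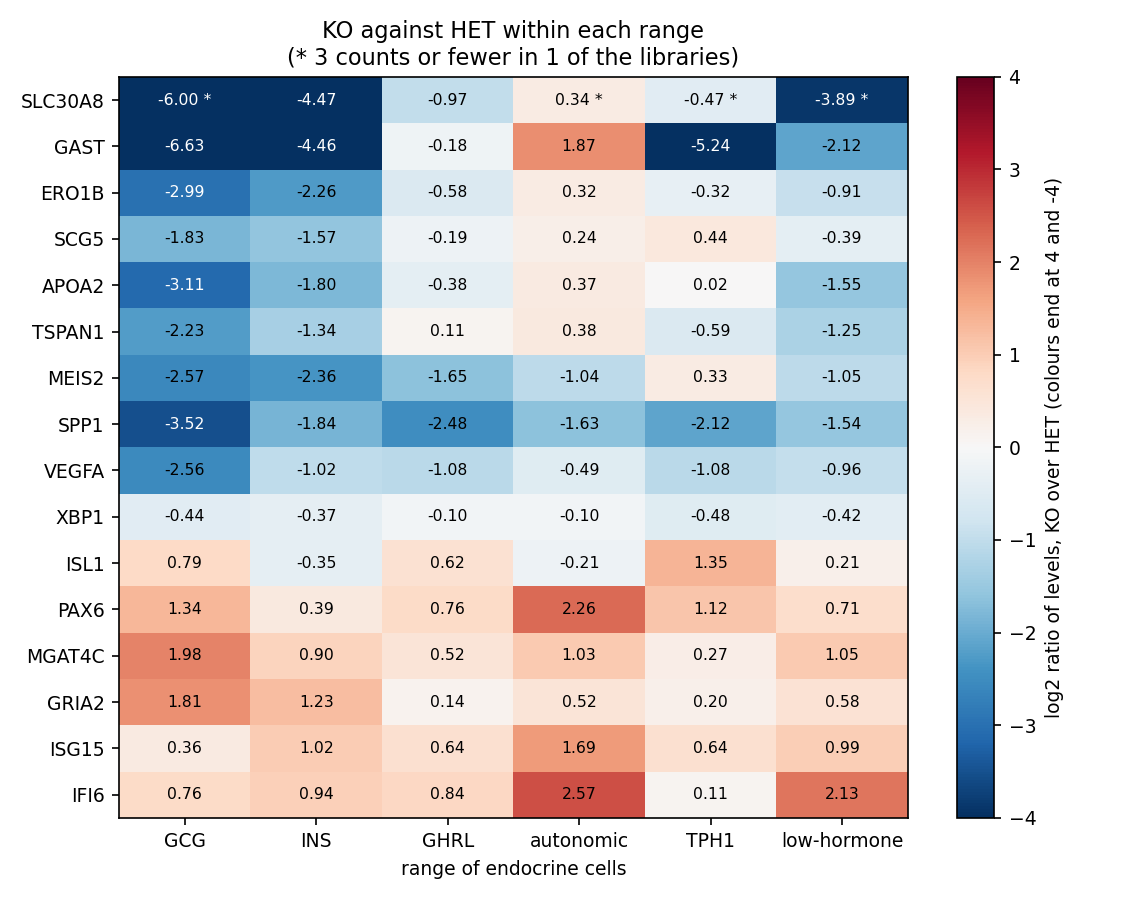
Log2 ratio of KO over HET for 16 genes (rows) in each of the 6 ranges (columns), blue where KO is lower and red where it is higher. ERO1B goes from -2.99 in the GCG range and -2.26 in the INS range to 0.32 in the autonomic range, and PAX6 is above 0 in every column.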

How the data were processed

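Raw UMI counts per gene and barcode were deposited by the authors, 1 matrix per library. Per the file headers the matrices come from Cell Ranger 6.1.2, and GRCh38 and Seurat are listed, with no role, in the submitters' processing notes. Any filter on barcodes is not given in the sources used here, and every deposited barcode had at least 500 UMIs.

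Counts of endocrine cells were summed per library and scaled to CPM with TMM factors (edgeR 4.0.16, R 4.3.3) on the 3 sums. The ratio and its interval were tested on simulated data. These were independent Poisson counts, as the interval assumes, so the test does not cover counts gathered in a few cells. Called genes needed at least 50 CPM in KO or HET and a 2-fold difference, and list members at least 5 CPM. Ratios have exact conditional binomial 95% intervals, levels exact Poisson ones and shares exact (Clopper-Pearson) ones. A count of 0 was set to a floor of 3 counts per library. UMIs are molecules caught in 1 library each and were treated as independent, so intervals omit variation between cells and between cultures.

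Named genes were up to 15 called genes in each direction with the largest differences (15 lower, 11 higher), PAX6, GHRL, ERN1 and XBP1, and list members as examples. Other genes were named after their values were seen. The members, the 24 lists and the 13 marker lists were chosen with earlier results of these data known. CCN1 and CCN2 were matched by their older symbols.

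Scrublet (scanpy 1.11.5, expected rate 0.08) called 0 WT, 1 HET and 1 KO barcode, so the caller did not work and doublets were kept. Thinning to 3000 UMIs left out 93 KO and 20 HET endocrine cells, and 45 KO and 64 HET CHGA-low cells. KO and HET shared 30 of all barcode sequences. Over 12 alternative settings, the scaling (plain CPM, DESeq2 1.42.0 size factors), the CPM filter, the cell filters, doublets and the weights of cells were varied in turn. 1 of the settings joined a stricter UMI limit with a stricter mitochondrial limit. Leaving out the 5 top cells of a gene was added after seeing the data.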

Additional observations from a re-analysis of the deposited data

Results flagged for a closer look

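APOA2 had opposite directions in endocrine and other cells. Its log2 ratio of KO to HET was -2.12 in endocrine cells and 1.05 in CHGA-low cells, at 1157 and 267 CPM in the HET and KO endocrine cells against 390 and 806 CPM in the CHGA-low cells. ONECUT3 was the reverse case, with a log2 ratio of 1.03 in endocrine cells and -1.80 in CHGA-low cells, where it was at 59.9 CPM in HET and 17.2 CPM in KO. Both are single libraries, and the difference between the cell groups was not tested.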

How the results depend on the processing

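None of the 29 named genes with a recomputed value changed direction under any of the 12 alternative settings or without the 5 top cells, and the median of the hormone genes stayed between -2.82 and -1.92. Of the 26 called genes, TPH1 (0.97) and ISG15 (0.79) were under 2-fold when cells needed 3000 UMIs and no more than 10% mitochondrial ones. SPOCK1 (0.90) was under 2-fold without the top 8% of Scrublet scores. So were 3 genes with each cell weighted equally and 11 with the ranges weighted equally. Among these 11, INS and TPH1 themselves help to cut the ranges. The number of genes at least 2-fold higher was 17 with a total without mitochondrial and hormone genes, 70 at 10 CPM, 960 with no CPM filter and 3 with the ranges weighted equally. The number lower was 154 at 10 CPM and 1214 with no CPM filter, where more genes of low counts are tested. GHRL was the 1 gene of these 29 that was past 2-fold under a setting (without the 5 top cells, 1.05) and not in the reported comparison. Plain CPM gave 16 higher and 35 lower genes. The log2 ratio of PAX6 was 0.17 with CHGA at 20 or more per 10000, 0.15 without the top Scrublet scores, 0.12 with each cell weighted equally and 0.90 with the ranges weighted equally, and the cause was not tested. The endocrine share followed the limits on cells. With CHGA at 5 or more per 10000 it was 22.2% in WT, 9.02% in HET and 14.7% in KO, and with 20 or more 15.3%, 6.21% and 10.7%. Under the stricter UMI and mitochondrial limits it was 16.8%, 5.69% and 7.81%, and without the top Scrublet scores it was 17.6% in WT and 6.87% in HET. No paired analysis was possible because each genotype has 1 library. Depth limits genes under 5 CPM, and the GCG range rests on 35 KO cells.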
